A study of Rattus norvegicus with 10 samples.

Results

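Reelin, the 2 receptors it binds on neurons and the adaptor protein inside the cell were followed in messenger RNA of the hippocampus of injured and control rats. The 4 genes, Reln, Vldlr, Lrp8 and Dab1, were taken from the 16610 gene symbols that had a row in the count table. They had 6 rows, because Lrp8 had 3, and the row that stands for each gene was chosen by its mean count over all rats. The genes themselves were chosen with earlier results of these data known, among them the lower level of Reln after injury, so the values of Reln are a description and lend no support to themselves.

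The rats were adult male Sprague-Dawley rats, and all 10 underwent anaesthesia, craniectomy over the left parietal lobe and the rest of the surgery. In 5 of them a pressure pulse, with a mean severity of 3.32 atm, was then delivered to the intact dura (lateral fluid percussion, a model of traumatic brain injury, TBI), and the 5 sham rats received no pulse. Tissue of the left hippocampus containing CA3 and dentate gyrus was taken from each rat separately, 3 months after the injury or sham surgery. The injured rats had no EEG recording, so which of them had seizures is not known from the methods. The study reports no handling-related seizures in them. It cites earlier data in which only a small share of rats has epilepsy by this time. Levels are given as CPM, the reads on a row relative to all counts of its library after scaling by the trimmed mean of M values (TMM), and log2 changes are TBI over sham.

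Reelin is a large glycoprotein secreted into the extracellular matrix. In the developing brain it comes from Cajal-Retzius cells and guides the layering of neurons, and in the adult hippocampus it is made mostly by GABAergic interneurons, with some Cajal-Retzius cells remaining near the dentate gyrus. It binds the lipoprotein receptors encoded by Vldlr and Lrp8, which leads Src family kinases to phosphorylate the adaptor Dab1. From there the signal runs to PI3K and Akt, to Crk and Rap1 and to the cytoskeleton, and Dab1 is then degraded. Loss of reelin is known to accompany dispersion of the granule cell layer in epileptic hippocampus, and methylation of its promoter in epilepsy is among the background the study cites.

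For that reason the 250 bases before the Reln start are shown, from RefSeq in the GRCr8 build, at chr4:13628318-13628567 on the plus strand, with each CpG dinucleotide in capitals. This is a later build than the one the reads were aligned to (rn4).

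Reln: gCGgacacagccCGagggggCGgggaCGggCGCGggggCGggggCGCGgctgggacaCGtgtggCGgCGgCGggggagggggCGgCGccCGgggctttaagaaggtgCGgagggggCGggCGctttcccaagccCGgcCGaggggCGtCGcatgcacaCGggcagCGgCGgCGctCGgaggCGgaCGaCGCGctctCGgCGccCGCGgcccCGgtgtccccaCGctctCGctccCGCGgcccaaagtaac

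This stretch held 41 CpG dinucleotides (the letters CG, read on 1 strand since the motif is its own complement), and 0.980% of 33469 promoter windows of the same length held as many or more. The median window held 5. Vldlr had 30, and the Dab1 windows had 11 and 35. These are properties of the reference sequence, and methylation was not part of the files analysed here.

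The libraries held 23425817 to 31671838 counts. Ribosomal RNA rows took 59.0% of counts in sham replicate 4 and 58.5% in sham replicate 5, against 12.5% to 26.2% in the other 8 libraries, and the counts on each of the 4 genes were lowest among sham rats in those 2 libraries. Markers of the dissected fields were present. The dentate granule cell markers Prox1, Calb1 and C1ql2 and the CA3 markers Grik4 and Bok were counted in all libraries, while Tdo2 and Iyd had at most 3 and 5 counts in any library. Markers of the neighbouring CA1 field varied widely: the summed level of 4 CA1 genes was 54.0 to 112 CPM in sham rats and 45.4 to 384 CPM in TBI rats. A sum over a tissue cannot separate fewer cells of a type from less RNA per cell, and this holds for each comparison that follows.

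Reln was lower in each TBI rat than in each sham rat. Sham replicates 1 to 5 held 28.3, 28.4, 24.7, 32.7 and 26.9 CPM. TBI replicates 1 to 5 held 17.1, 22.4, 24.3, 13.6 and 16.0 CPM. The groups did not overlap, but the lowest sham rat (replicate 3) and the highest TBI rat (replicate 3) lay close together, and TBI replicate 4 was lowest of all. Groups did not overlap in 0.923% of the 22431 rows tested.

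The mean of Reln was 28.2 CPM ± 2.93 (SD, n = 5) after sham surgery and 18.7 CPM ± 4.50 (SD, n = 5) after injury. The fitted log2 change was -0.59 ± 0.136 (standard error) with a 95% interval from -0.88 to -0.30, which puts TBI rats at 66.4% of the sham level. Over all rows this did not pass: the unadjusted p was 0.000543 and the Benjamini-Hochberg adjusted p (edgeR) was 0.477. By unadjusted p, Reln ranked 19 of 22431 rows. At the threshold of 0.001 that the study used without adjustment, 0.0401% of rows passed in the lower direction, and Reln was one of these 9. The study itself lists Reln as lower after TBI, with an adjusted p (edgeR) under 0.05, unlike here. The reason for this difference was not tested. The study's methods name fewer sham rats for expression profiling in one place than the files hold. Its threshold may thus have been applied to another set of controls, while all sham libraries entered here. The p-value of Reln also depended on the test. With all rats kept, edgeR's exact test gave an unadjusted p of 3.58e-05 and an adjusted p of 0.0730, and DESeq2 gave an adjusted p of 0.0704.

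The raw counts behind these values were 908, 789, 760, 481 and 430 in sham replicates 1 to 5. They were 591, 840, 829, 429 and 618 in TBI replicates 1 to 5. Before scaling the groups overlapped, and the fewest reads among sham rats were in replicates 4 and 5, the libraries rich in ribosomal RNA. With total counts as the library size, the log2 change of Reln was -0.06, while the median of all rows rose from -0.01 to 0.50. Without those 2 sham libraries it was -0.53 (unadjusted p = 0.00538, edgeR). Leaving out TBI replicate 3, the injured rat with the most Reln, gave -0.70 and an adjusted p (edgeR) of 0.0474, the only one of 19 alternatives in which Reln passed. The adjusted p over these alternatives ran from 0.0474 to 0.974.

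**Figure D1:**
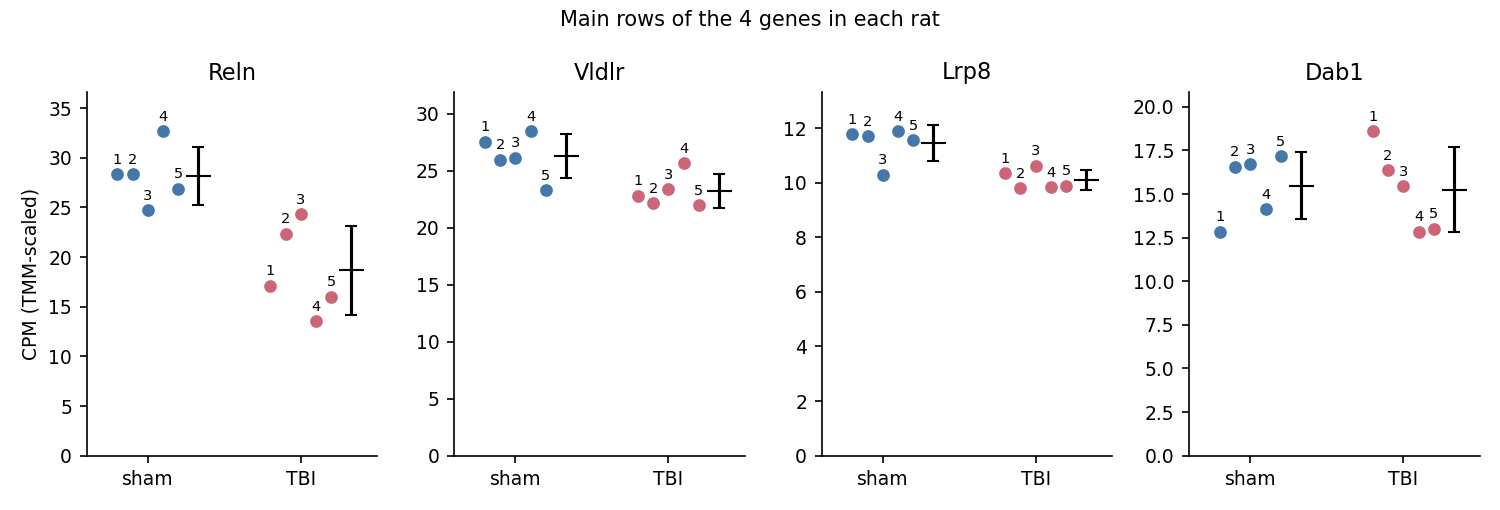
Level of Reln, Vldlr, Lrp8 and Dab1 in each rat, in CPM on axes that start at 0. Points are rats with their replicate number, and the bar gives the mean and SD of the 5 rats in a group. The TBI rats lie below each sham rat for Reln (24.3 CPM or less against 24.7 CPM or more) and overlap the sham rats for the other genes.

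The receptors came next. Vldlr, the very low density lipoprotein receptor, was 27.5, 25.9, 26.1, 28.5 and 23.3 CPM in sham replicates 1 to 5. It was 22.8, 22.1, 23.4, 25.6 and 22.0 CPM in TBI replicates 1 to 5. Most sham rats were above most TBI rats, with sham replicate 5 among the TBI values and TBI replicates 3 and 4 within the sham range. The means were 26.3 CPM ± 1.96 (SD, n = 5) and 23.2 CPM ± 1.48 (SD, n = 5). The fitted difference was -0.18 on the log2 scale, with a 95% interval from -0.35 to -0.02. The change was not called, with an unadjusted p of 0.0336 and an adjusted p (edgeR) of 0.601.

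Lrp8, also known as the apolipoprotein E receptor of neurons, is the receptor that sits at synapses with NMDA receptors. Its main row held 11.8, 11.7, 10.3, 11.9 and 11.6 CPM in sham replicates 1 to 5. It held 10.4, 9.79, 10.6, 9.84 and 9.89 CPM in TBI replicates 1 to 5. Sham replicate 3 was the one sham rat within the TBI range, below TBI replicates 1 and 3. The means were 11.4 CPM ± 0.653 (SD, n = 5) and 10.1 CPM ± 0.368 (SD, n = 5), and the log2 change was again -0.18, with a 95% interval from -0.36 to -0.00069. It was not called either, with an unadjusted p of 0.0492 and an adjusted p (edgeR) of 0.633.

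The other 2 Lrp8 rows are predicted transcripts of the same gene, with log2 changes of -0.10 (95% interval from -0.32 to 0.13) and -0.02 (from -0.27 to 0.23). Between 57 and 208 reads fell on either row in a library, against 175 to 382 on the main row. Transcripts of one gene share sequence, and how the 36-base reads that fit several of them were assigned is not stated, so the rows are not independent. With the 3 rows summed the log2 change of Lrp8 was -0.12 (unadjusted p = 0.109, edgeR), beside -0.18 for the main row alone.

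The balance of the receptors was compared within libraries, where no scaling enters. The log2 ratio of Vldlr to Lrp8 counts was 1.20 ± 0.125 (SD, n = 5) after sham surgery and 1.20 ± 0.105 (SD, n = 5) after injury, a difference of 0.00035 (two-sided exact permutation p = 1). Sham rats ran from 1.01 to 1.34 and TBI rats from 1.14 to 1.38, with 4 of the TBI rats within 1.14 to 1.18 and TBI replicate 4 above them. Because transcript lengths were not among the sources used, the ratio says nothing about which receptor is more abundant.

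Dab1, the adaptor, did not differ beyond the spread of the rats. It was 12.8, 16.6, 16.7, 14.1 and 17.2 CPM in sham replicates 1 to 5. It was 18.6, 16.4, 15.4, 12.8 and 13.0 CPM in TBI replicates 1 to 5. The highest value was in TBI replicate 1 and the lowest values were shared by sham replicate 1 and TBI replicates 4 and 5, so the groups overlapped over nearly their whole range. The log2 change was -0.02 with a 95% interval from -0.26 to 0.22 (edgeR, adjusted p = 0.984), which leaves room for a change of up to that size in either direction.

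Set against its receptors in the same library, Dab1 had a log2 ratio of -1.29 ± 0.258 (SD, n = 5) after sham surgery and -1.14 ± 0.253 (SD, n = 5) after injury. The difference of 0.15 did not pass (two-sided exact permutation p = 0.357, adjusted over the 2 ratios 0.714). The smallest p that 252 assignments of 10 rats can give is 0.00794. Both groups spread over about the same range, from -1.62 to -1.02 in sham rats and from -1.47 to -0.83 in TBI rats.

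At an adjusted p of 0.05, 0 of the 4 genes were called by edgeR, as were 0% of all rows, and DESeq2 also called 0 of the 4. At an unadjusted p under 0.05, 3 of the 4 were lower (Reln, Vldlr and Lrp8), where 7.89% of all rows passed in either direction, 4.89% higher and 3% lower. This count rests on small margins for the receptors. It was 1, with Reln alone, when the ribosomal RNA share was a covariate, when no filter on low counts was used, without both ribosomal-rich sham libraries, and also without sham replicate 1, sham replicate 4, TBI replicate 2, TBI replicate 3 or TBI replicate 5. It was 0 with total counts as the library size. Whether the change of Reln differed from that of its receptors was not tested.

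**Figure D2:**
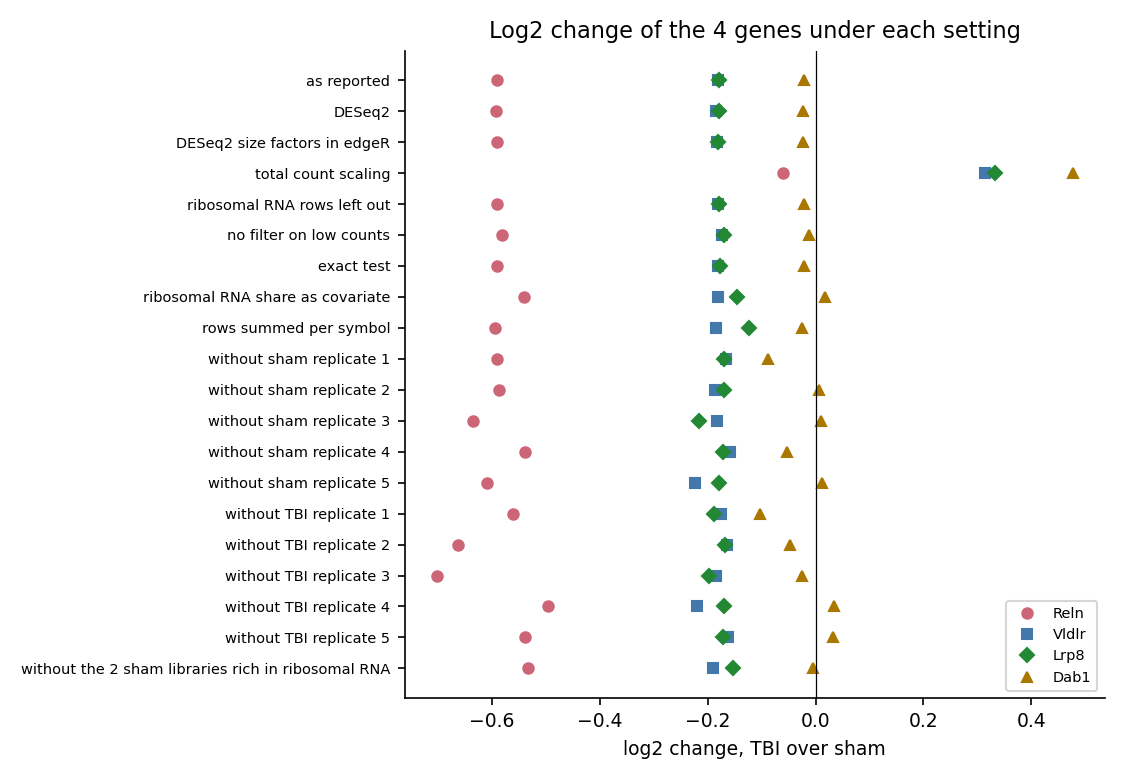
Log2 change of each of the 4 genes (x axis, TBI over sham) as reported and under 19 alternatives (y axis). Reln keeps a value between -0.70 and -0.50 when any 1 rat is left out, Vldlr and Lrp8 stay below 0 apart from scaling by total counts, and Dab1 lies on both sides of 0.

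Since adult reelin comes mostly from interneurons, the markers of these cells were read beside it. Of 6 GABAergic genes, 3 had an unadjusted p under 0.05, all lower in TBI: Gad2 and Gad1, the enzymes that make GABA, and Lhx6, a transcription factor of interneurons. Over all rows, 3% were lower at that threshold. Gad1 and Gad2 were known to be lower in these data beforehand, so their part of the count is a description. None of the 3 genes was called after adjustment over all rows. In the Gad2 row alone of the 3 the groups did not overlap, as in 0.923% of all rows. Gad2 had a log2 change of -0.46 (standard error 0.0915), Gad1 of -0.46 (standard error 0.104) and Lhx6 of -0.36. The vesicular GABA transporter Slc32a1 had -0.30 with a 95% interval from -0.72 to 0.11. The summed level of the 6 genes was 147 to 192 CPM in sham rats. It was 103, 129, 157, 109 and 127 CPM in TBI replicates 1 to 5, beside Reln at 17.1, 22.4, 24.3, 13.6 and 16.0 CPM in the same order.

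Relative to Gad1, Gad2 and Slc32a1 counts in the same library, Reln had a log2 ratio of -2.61, -2.33, -2.44, -2.31 and -2.37 in sham replicates 1 to 5. The ratio was -2.44, -2.40, -2.54, -2.87 and -2.82 in TBI replicates 1 to 5. In 3 TBI rats it lay within the sham range, and in TBI replicates 4 and 5 it lay below each sham rat. The means were -2.41 ± 0.123 (SD, n = 5) and -2.61 ± 0.221 (SD, n = 5), a difference of -0.20, against the -0.59 of Reln alone. No test was made of this ratio, because Reln and the GAD genes were known to be lower beforehand, and the part of the number of interneurons in the level of Reln was not tested.

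**Figure D3:**
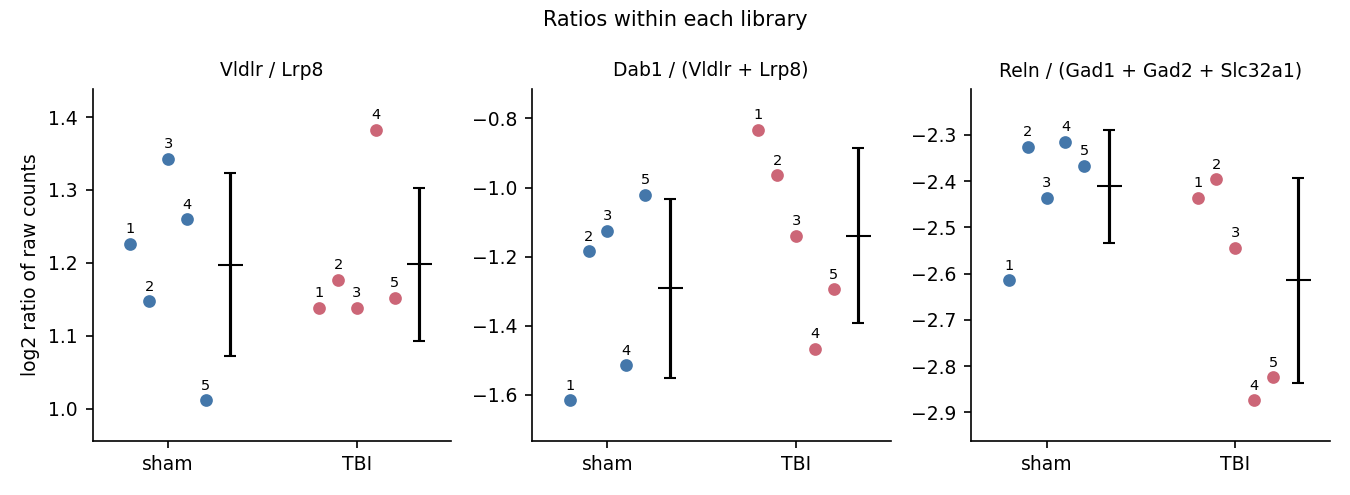
Log2 ratios of raw counts within each library for Vldlr to Lrp8, Dab1 to its receptors, and Reln to 3 GABAergic genes. Points are rats with their replicate number and bars are the mean and SD of 5 rats. The groups overlap in each panel, and TBI replicates 4 and 5 lie lowest for Reln (-2.87 and -2.82).

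Markers of interneuron classes in which reelin is known came next. Of 5 such genes, 0 had an unadjusted p under 0.05 in edgeR's test. Sst, the neuropeptide somatostatin, had a log2 change of -0.32 with a 95% upper bound of 0.25, Npy of -0.12, Lamp5 of -0.13, Nos1 of -0.15 and Id2 of 0.06. Their summed level ran from 126 to 149 CPM in sham rats and from 95.6 to 143 CPM in TBI rats.

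Markers of Cajal-Retzius cells had no common direction, and the summed level of 5 of them was 9.20 to 14.3 CPM in sham rats and 10.5 to 16.4 CPM in TBI rats. Tp73, a transcription factor of these cells that ependymal cells also make, was at 5.86 CPM ± 0.678 (SD, n = 5) after sham surgery and 9.02 CPM ± 2.25 (SD, n = 5) after injury. Its log2 change was 0.63, with an unadjusted p of 0.000594 and an adjusted p (edgeR) of 0.477. TBI replicate 4, at 6.20 CPM, lay within the sham range. Ebf3 and Calb2 had log2 changes of -0.32 and -0.14 and neither had an unadjusted p under 0.05. The defining genes Lhx1 and Lhx5 had at most 4 and 1 counts in any library, and were not tested.

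Among markers of neighbouring tissue, 0 were called after adjustment (edgeR). Those with an unadjusted p under 0.05 were all in the higher direction, where 4.89% of all rows were higher. They were 2 of 4 tested genes of the CA1 list (Wfs1 and Man1a1), 1 of 3 of the neocortex list and 1 of 2 of the thalamus list (Prkcd). The choroid plexus list had 1 of 4 (Folr1) and the meninges list 2 of 4 (Col1a1 and Col1a2). In the Man1a1 row the groups did not overlap, as in 0.923% of all rows. Wfs1 was 37.1 CPM ± 13.3 (SD, n = 5) after sham surgery and 107 CPM ± 83.0 (SD, n = 5) after injury. The summed CA1 level was 224, 384, 108, 45.4 and 152 CPM in TBI replicates 1 to 5. In TBI replicates 1 to 5, in that order, Reln was 17.1, 22.4, 24.3, 13.6 and 16.0 CPM beside these sums. The summed levels ran from 3.45 to 6.31 CPM in sham rats and from 3.73 to 6.84 CPM in TBI rats for the neocortex list, and from 6.12 to 10.1 and 7.13 to 11.1 CPM for the thalamus list. For the choroid plexus list they were 5.91 to 34.8 and 11.2 to 35.5 CPM, and for the meninges list 4.94 to 17.4 and 8.89 to 16.9 CPM. The part of these tissues in the level of Reln was not tested.

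The dentate granule cell list, whose cells carry reelin receptors, had 0 of 3 tested genes with an unadjusted p under 0.05. Its summed level was 54.5 CPM in sham replicate 1 and 167 to 190 CPM in the other sham rats, and 74.8 to 185 CPM in TBI rats. Dab1 was low in sham replicate 1 and in TBI replicate 5, which had the lowest granule cell levels of their groups, but TBI replicate 1 had the next lowest granule cell level of the injured rats (105 CPM) and the most Dab1. The summed CA3 list was at 180 to 256 CPM in sham rats and 192 to 262 CPM in TBI rats.

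The rest of the reelin pathway was read from 66 genes in 9 groups, of which 59 had a row and 58 passed the filter on low counts. At an adjusted p of 0.05, 0 of the 58 genes were called by edgeR or by DESeq2. At an unadjusted p under 0.05, 3 were higher (Clu, Apoe and Plat) and 1 was lower (Map1b), where 4.89% of all rows were higher and 3% lower. The share of pathway genes was thus near that of all rows, and the values of these genes are given as a description. Their median log2 change was 0.02, beside -0.01 over all rows tested, with 34 above and 24 below 0.

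Of the extracellular partners, 10 other receptor ligands and co-receptors were tested and 2 had an unadjusted p under 0.05. Apoe, the apolipoprotein that astrocytes secrete and Lrp8 binds, was 528, 500, 674, 584 and 579 CPM in sham replicates 1 to 5. It was 714, 735, 639, 701 and 777 CPM in TBI replicates 1 to 5. Sham replicate 3 and TBI replicate 3 lay toward the other group and made the groups overlap. The log2 change was 0.32 ± 0.0895 (standard error) with an adjusted p (edgeR) of 0.483. Clu, or clusterin, a second lipoprotein component that binds both receptors, had a log2 change of 0.40, with 624 CPM ± 76.3 (SD, n = 5) after sham surgery and 821 CPM ± 144 (SD, n = 5) after injury. Here too TBI replicate 3, at 606 CPM, lay within the sham range. Thrombospondin 1 (Thbs1), F-spondin (Spon1) and the ephrins Efnb1, Efnb2 and Efnb3 had no unadjusted p under 0.05, with a 95% interval for Spon1 from -0.76 to 0.46.

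Among 6 proteases that cut reelin and their inhibitors, all 6 log2 changes were above 0 and 1 had an unadjusted p under 0.05. Plat, the tissue plasminogen activator, was 28.6 CPM ± 3.14 (SD, n = 5) after sham surgery and 34.0 CPM ± 5.87 (SD, n = 5) after injury, a log2 change of 0.25 ± 0.109 (standard error) with an adjusted p (edgeR) of 0.599. Adamts4, a metalloproteinase that cleaves reelin, had a log2 change of 0.20 with a 95% interval from -0.06 to 0.46. The other 4 lay between 0.0045 and 0.07. Of 3 genes of receptor turnover, Mylip, a ubiquitin ligase for both receptors, had 0.19 and Adam10 had 0.09, neither with an unadjusted p under 0.05.

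Inside the cell, the 4 Src family kinases had log2 changes from -0.03 to 0.10, with Fyn, the main kinase of Dab1, at 90.1 CPM ± 5.57 (SD, n = 5) and 88.0 CPM ± 2.67 (SD, n = 5). Src and Lyn had the smallest unadjusted p of these (0.294 and 0.493, edgeR), with log2 changes of 0.09 and 0.10. The Dab1 degradation genes Cul5 and Rnf7 had -0.07 and -0.01. The 5 genes of the Crk and Rap1 branch ran from -0.04 to 0.15, with Crkl and Crk at 0.15 and 0.08.

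Of 12 genes of the PI3K, Akt and tau branch, 0 had an unadjusted p under 0.05, and the highest log2 change was 0.22, for Cdk5r2, an activator of Cdk5. In the cytoskeleton branch, 1 of 11 did: Map1b, a microtubule-associated protein phosphorylated downstream of reelin, was 1312 CPM ± 137 (SD, n = 5) after sham surgery and 1140 CPM ± 57.8 (SD, n = 5) after injury, a log2 change of -0.20 with an adjusted p (edgeR) of 0.589. Dcx, the marker of young granule cells, had -0.17 with a 95% interval from -0.37 to 0.04. Among 5 synaptic partners of Lrp8, the NMDA receptor subunits Grin2b and Grin2a had -0.26 and -0.12, again with no unadjusted p under 0.05.

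**Figure D4:**
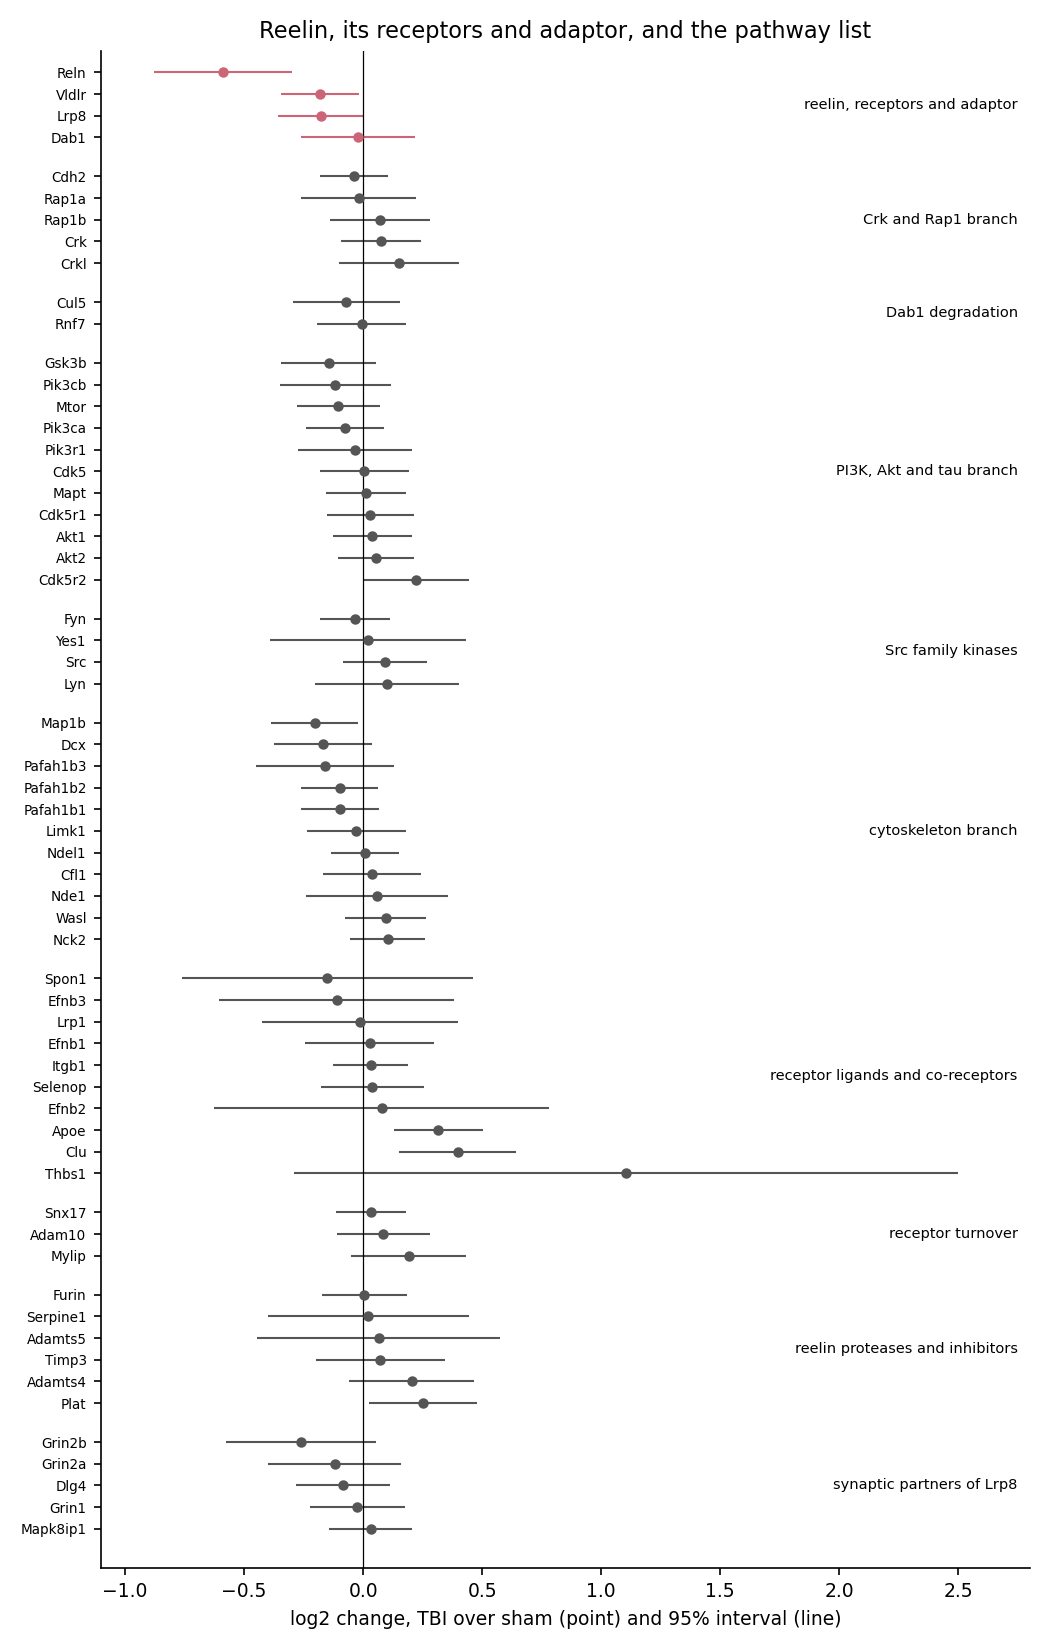
Log2 change (point) and 95% interval (line) of Reln, Vldlr, Lrp8 and Dab1 and of pathway genes (y axis, in groups), TBI over sham. The interval of Reln runs from -0.88 to -0.30, and apart from Thbs1 (1.10) the pathway genes shown lie between -0.26 and 0.40.

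The genes whose level followed Reln most closely from rat to rat were looked for after the mean of each group was subtracted, so that the difference between group means did not enter. Among 10718 symbols at 1 CPM or more, over 10 libraries, Bcl6b, Lpcat1, Wipi2, Sema4b and Ptgfrn had the highest Pearson correlations with Reln, from 0.892 to 0.919, with Spearman's rho from 0.842 to 0.988. Without TBI replicates 3 and 4, which lay farthest from the middle of Reln, r ran from 0.738 to 0.929. These are the top of a long ranking over few libraries and carry no p-value. None of the 5 is a gene of the pathway list, and their own log2 changes lay between -0.04 and 0.22.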

How the data were processed

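Poly-A RNA of 10 rats was sequenced as single 36-base reads. The study describes alignment to the rat genome by BWA and counting over Ensembl transcripts by a custom script, but the rows are RefSeq RNA records. The authors deposited raw counts, 1 column per rat, neither normalized nor pooled. Handling of reads that fit several records, and of strand, is not given in the sources used here. Unmapped reads, a median of 22.2% of a library, were kept out.

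Records were named by accession from RefSeq (GRCr8), which gave a symbol to 54.2% of 32041 rows. Rows with a total of at least 44 counts, the 30th percentile, were tested with edgeR 4.0.16 (quasi-likelihood F test, robust, TMM) in R 4.3.3. Benjamini-Hochberg adjustment was over all 22431 rows. The test was checked on simulated data with larger changes than those of the members, so the check does not cover changes of their size. DESeq2 1.42.0 was an alternative. Standard errors are the log2 change over the root of F. Ratios of raw counts were compared by two-sided exact permutation. Intervals give the uncertainty of the fitted log2 change, as estimated from these rats, and the SDs give the spread between rats.

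Members and gene lists were chosen with earlier results of these data known. Named were the members, per pathway group the 2 genes of smallest p and each with an unadjusted p under 0.05, markers with such a p and the GABA genes, and the genes most like each member. A few listed genes are not reported here by name. Replicate numbers follow accession order and pair no rats. Figures were drawn with matplotlib 3.10.9.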

Additional observations from a re-analysis of the deposited data

Results flagged for a closer look

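In 74 groups of 5 rats (the 4 genes, named pathway and marker genes, and the 3 ratios), 4 held a lone rat whose distance to its nearest neighbour exceeded the 95% limit of Dixon's test, where chance alone would give 3.7. Lrp8 in sham replicate 3 was 10.3 CPM, below the other sham rats at 11.6 to 11.9 CPM. Mylip in sham replicate 3 was 13.6 CPM, above the other sham rats at 9.42 to 10.6 CPM. Cdk5r2 in TBI replicate 1 was 121 CPM, below the other TBI rats at 148 to 156 CPM. The log2 ratio of Vldlr to Lrp8 in TBI replicate 4 was 1.38, above the other TBI rats at 1.14 to 1.18.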

How the results depend on the processing

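No paired analysis was possible because the labels number the rats from 1 to 10 and tie no sham rat to an injured one. Reln was lower under each of 19 alternatives, with an unadjusted p under 0.05 in 18 of them. When 1 rat at a time was left out it ran from -0.70 to -0.50, and passed the adjusted threshold without TBI replicate 3. With total counts as the library size, which raised the median of all rows to 0.50, Vldlr, Lrp8 and Dab1 had log2 changes of 0.31, 0.33 and 0.48, each below that median. Dab1 was 0.018 with the ribosomal RNA covariate and ran from -0.10 to 0.034 when a rat was left out.

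The count of the 4 genes past the adjusted threshold ran from 0 to 1 when a rat was left out. The count at an unadjusted p under 0.05 was 3. It was 0 with total counts, 1 with no filter, 1 with the covariate, 1 without the 2 sham libraries rich in ribosomal RNA, and 1 to 3 when a rat was left out. The share of all rows at an unadjusted p under 0.05 in either direction was 16.9% with total counts and 4.42% with the covariate. It was 7.89% as reported, 5.60% without the 2 sham libraries and 5.17% to 11.4% when a rat was left out. Of pathway genes, 1 was called with total counts, a setting in which 92 rows of the whole table were called. Higher pathway genes numbered 8 with total counts, 1 with the covariate and 2 to 5 when a rat was left out. Lower ones numbered 0 with total counts, 0 with the covariate, 0 without the 2 sham libraries, and 0 to 2 when a rat was left out. The cause was not tested. The Vldlr to Lrp8 difference was -0.0614 with rows summed, -0.0409 without the 2 sham libraries, and from -0.0461 to 0.0367 when a rat was left out, each within the spread of rats.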

Other observations

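The same search for genes that follow a member from rat to rat, after subtraction of group means, gave 3 symbols each for the other genes. Vldlr was closest to Rasgef1b, Rspo1 and Tbc1d8 (Pearson's r from 0.877 to 0.901, Spearman's rho from 0.745 to 0.794), and without sham replicate 5 and TBI replicate 4 r was 0.717 to 0.853. The main row of Lrp8 was closest to Ube2g1, Ugcg and Osbpl2 (r from 0.907 to 0.920, rho from 0.721 to 0.855), and r was 0.646 to 0.745 without sham replicate 3 and TBI replicate 2. Dab1 was closest to Mdm4, Atm and Sbf2 (r from 0.943 to 0.966, rho from 0.879 to 0.939), and r was 0.932 to 0.962 without sham replicate 1 and TBI replicate 4. Each is the top of 10718 symbols over 10 libraries and is given as a description, with no p-value.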
